A study of Mus musculus with 172 samples.

Results

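Atf4 and 8 genes of the integrated stress response were followed through sleep deprivation in mouse cerebral cortex and liver. The members were taken by name as Atf4, Ddit3, Asns, Trib3, Chac1, Sesn2, Ddit4, Psat1 and Phgdh, and all 9 were listed in both tissues, out of 16308 genes listed in either tissue. RNA-seq covered adult male mice of 33 BXD/RwwJ recombinant inbred lines, of their parental strains C57BL/6J (B6) and DBA/2J (D2), and of the reciprocal F1 crosses BD-F1 and DB-F1. Mice were sleep deprived for 6 h from light onset (SD) or left undisturbed (control, Ctr), and tissue was taken at the end of that time. RNA of the mice of a line and condition was pooled before library preparation, so each of the 39 pools per group (33 lines, 4 parental pools, 2 F1 pools) is 1 library, mouse-to-mouse spread within a line is not seen, and the pool is the unit of every test; B6 and D2 each enter with 2 pools. A further 4 lines of the older BXD/TyJ set (BXD05, BXD29, BXD29t and BXD32) were kept apart.

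The integrated stress response starts when kinases phosphorylate the translation factor eIF2, which slows general protein synthesis while the mRNA of Atf4 is translated better. ATF4, a bZIP transcription factor, then raises genes for amino acid supply and transport, aminoacyl-tRNA synthetases, redox defence and, under lasting stress, cell death. Control of ATF4 by translation cannot be read from mRNA, which is what was measured here.

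Levels are log2 CPM, the log2 of a gene's read count relative to the scaled size of its library, as deposited. Cortex libraries held 18995492 to 28998853 reads and liver libraries 4681101 to 8269401. Median reads per library ranged in cortex from 14 for Trib3 to 2971 for Atf4, and in liver from 4 for Phgdh to 670 for Atf4. Phgdh had no read in 8 of 78 liver libraries, so its liver values resolve large differences only. Of the 1794 stretches of 100 bases in the Phgdh transcript, 792 (44.1%) occurred elsewhere in mm9 too, so its reads may be shared with copies and its values are uncertain at every step below. None of the stretches of the other 8 transcripts did. On mm9 (GENCODE vM1) Atf4 lies at chr15:80085614-80087970 (plus strand), Ddit3 at chr10:126727830-126733344 (plus), Ddit4 at chr10:59412423-59414518 (minus), Asns at chr6:7625169-7643254 (minus), Chac1 at chr2:119176965-119180117 (plus), Trib3 at chr2:152163158-152169768 (minus), Sesn2 at chr4:132047947-132066416 (minus), Psat1 at chr19:15979168-16021827 (minus) and Phgdh at chr3:98117093-98143913 (minus). Values are over all exons of a gene. Ddit3 lies over Mars on the opposite strand, and Sesn2 shares its strand with the non-coding Gm12981. Neuronal markers (5 of 5 listed) summed to between 7457 and 8720 CPM over all cortex libraries, and hepatocyte markers (5 of 5 listed) to between 1971 and 3333 CPM in liver. Some cell markers moved with SD too. Of 5 neuronal markers in cortex 3 fell (summed median 8278 to 7816 CPM) and of 5 astrocyte markers 3 rose (1592 to 1649 CPM). Of 4 oligodendrocyte and 4 microglia markers there, 2 each fell. These counts stand beside 35.4% of all cortex genes lower and 33.0% higher in SD. In liver 4 of 4 B cell markers fell (11.8 to 4.58 CPM, ranges 5.86 to 25.8 in Ctr and 1.70 to 12.1 in SD), beside 22.6% of all liver genes lower. None of 5 hepatocyte markers passed in liver. Among them, Alb had the highest read density of all liver genes (1.78 reads per exonic base). The 200 densest liver genes had a median absolute log2 change of 0.0257. It was 0.0892 for the other 8794 genes with a mean of at least 100 reads. These markers thus say little about hepatocyte content. Hepatocyte markers in cortex (2 of 5 listed) reached 219 CPM in 1 Ctr pool and 381 CPM in 1 SD pool, around medians of 15.9 and 10.4 CPM. Choroid plexus markers there (2 of 4 listed) reached 17.4 CPM in Ctr and 26.4 in SD, around medians of 5.36 and 5.10. Pituitary markers (2 of 3 listed) reached 59.8 and 6.48 CPM, around 1.06 and 0.882. Which tissue these reads came from was not tested. The part of these markers in the members' changes was not tested, and in bulk tissue fewer cells of a type and less RNA per cell cannot be told apart.

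The DNA element by which ATF4 and C/EBP proteins bind together has the core TGATGNAA. It was searched on both strands of the promoter windows of RefSeq (GRCm38.p6), which run from 250 bases before to 50 bases after a gene's start. The core was present in 3.97% of 32851 windows. It was found in the windows of 3 members, Chac1, Trib3 and Asns, and not in those of Atf4, Ddit3, Sesn2, Ddit4, Psat1 and Phgdh. A match is a match of letters, and a missing one says only that the letters are not in this window. The matches are shown because these 3 promoters share the core while their genes moved differently, as described below. The capitals mark the core, and each sequence is read 5′ to 3′ along the strand of its gene.
Chac1: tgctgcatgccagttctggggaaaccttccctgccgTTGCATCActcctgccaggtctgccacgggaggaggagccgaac
Asns: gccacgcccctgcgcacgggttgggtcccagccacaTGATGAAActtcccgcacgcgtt
Trib3: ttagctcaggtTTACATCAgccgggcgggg
The Chac1 sequence lies at chr2:119351013-119351092 on the plus strand, with the core 193 bases before the start in the reverse orientation. That of Asns lies at chr6:7693210-7693268 on the minus strand, with the core 23 bases before the start in the forward orientation. The Trib3 sequence lies at chr2:152344028-152344057 on the minus strand, with the core from base 15 of the transcript, reversed.

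Per kilobase of exon, Atf4 stood highest of the 9 in Ctr cortex, at 70.2 ± 10.3 CPM (standard deviation, n = 39), followed by the asparagine synthetase gene Asns at 36.4 ± 4.09 and the serine synthesis gene Psat1 at 21.8 ± 1.77. Ddit4 (11.9 ± 0.956) came next, followed by Ddit3 (10.01 ± 0.944). The levels of Chac1 (4.51 ± 0.917), Phgdh (3.81 ± 0.686) and Sesn2 (3.43 ± 0.348) overlapped, and Trib3 was lowest at 0.303 ± 0.0948 CPM per kilobase. In Ctr liver Atf4 was again highest, at 61.4 ± 4.08 CPM per kilobase, but Trib3, which codes for a pseudokinase that binds AKT, was second at 17.0 ± 4.39. Ddit3 (9.23), Asns (8.67), Ddit4 (8.19), Chac1 (6.23) and Sesn2 (5.11 CPM per kilobase) followed, with overlapping spreads between each and the next. Psat1 (0.775) and Phgdh (0.255), both enzymes of serine synthesis, were lowest in liver. The tissues were normalized apart and differ in depth, so their levels stand side by side here without a test.

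**Figure D1:**
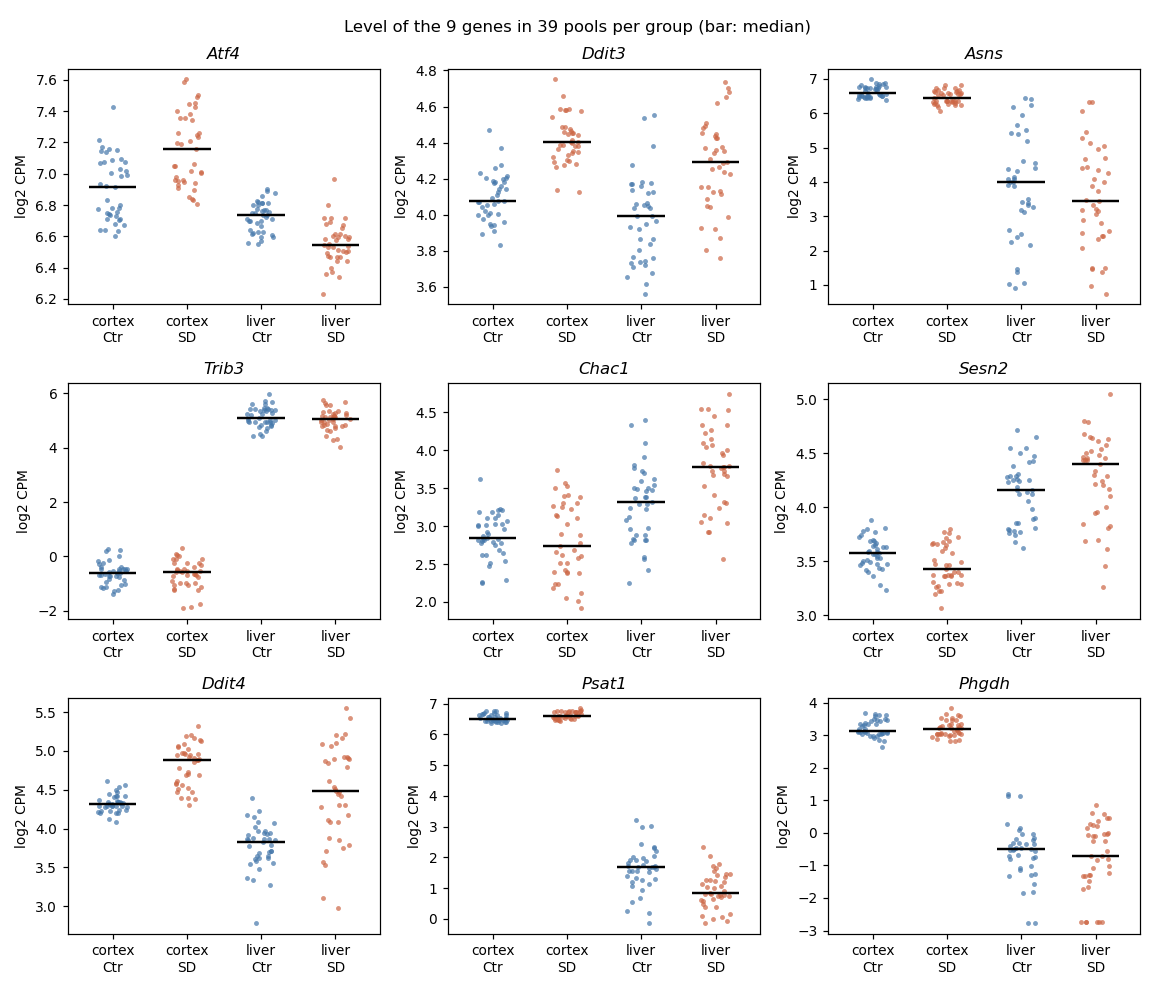
Level of each gene (log2 CPM) in the 39 Ctr and 39 SD pools of cortex and of liver; each point is a pool and the bar is the median, and the vertical axes differ between panels. In cortex the SD median of Ddit4 (4.89) stood above all Ctr pools, in liver the Asns levels of the Ctr pools ran from 0.91 to 6.43, and the Trib3 medians were near -0.6 in cortex and near 5 in liver.

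After SD, Atf4, Ddit3 and Ddit4 rose in cortex and Ddit3, Ddit4 and Chac1 rose in liver, while Atf4 fell in liver. Of the 9 members, 6 passed the limma test at an adjusted p of 0.05 in cortex, where 68.4% of all genes did. The 4 that rose (Atf4, Ddit3, Ddit4, Psat1) stand beside a background of 33.0% of genes higher in SD, and the 2 that fell (Asns, Sesn2) beside 35.4% lower. In liver 5 of 9 passed, beside 44.2% of all genes. There 3 rose (Ddit3, Chac1, Ddit4), against 21.5% of genes higher in SD, and 2 fell (Atf4, Psat1), against 22.6% lower. These shares are not far from the background, and the members' median change, -0.01 in cortex and -0.11 in liver on the log2 scale, lay at or near that of all genes (-0.01 and -0.00). The members thus did not move as a block in either tissue, and each is described by its role.

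The transcription factors come first. Atf4 in cortex ranged over 6.60, 6.92 and 7.43 log2 CPM (lowest, median and highest of 39 Ctr pools) and over 6.80, 7.16 and 7.60 in the SD pools. The groups overlapped widely, with 6 SD pools above the highest Ctr pool, but from the Ctr pool to its SD pool Atf4 rose in 38 of 39. The change was 0.25 ± 0.049 (log2, standard error), or 1.19-fold, with an adjusted p of 4.8e-06 in limma. BXD90, at -0.02, was the line that did not rise, and BXD67 rose most, by 0.44. In liver the Ctr pools ranged over 6.55, 6.74 and 6.90 and the SD pools over 6.23, 6.54 and 6.97. Here 21 SD pools lay below the lowest Ctr pool. Atf4 fell by 0.17 on the log2 scale (standard error 0.027, adjusted p = 1.6e-07 in limma) in 34 of 39 pools.

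The liver values of Atf4 moved with library size. Across the 39 pools its level correlated with the log2 library total at r = -0.57 (Spearman's rho = -0.66) in Ctr and r = -0.78 (rho = -0.74) in SD, and its change with the change of the total at r = -0.67 (rho = -0.66), with permutation p of 9e-05, 1e-05 and 2e-05 and adjusted p of 0.0016, 0.00054 and 0.00054 over 54 relations. Without the 2 pools farthest from the median total the last r was -0.69. No other member in either tissue had such a relation past the threshold. Liver reads per exonic base did not exceed 1.78 for any gene, against 43.5 in cortex, and the 200 densest liver genes had reads that grew with the total at a median log slope of 0.27, against 1.22 for the other 8794 genes with a mean of at least 100 reads. For Atf4, at 0.387 reads per base (rank 1316 of 13105), that slope was 0.780. With the library total as a covariate, Atf4 fell by 0.18 in liver (adjusted p = 1.4e-12 in limma), and the mean change of the total was -0.03 on the log2 scale. Whether duplicate reads were removed from the liver libraries is not given in the sources used here. Its part in the liver level of Atf4, in its liver change and in its difference between the tissues was not tested.

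Ddit3 codes for CHOP, a bZIP factor that acts late in the response and favours cell death. Its cortex levels were 3.83, 4.08 and 4.47 log2 CPM (lowest, median, highest) in Ctr and 4.12, 4.40 and 4.75 in SD. All 39 pools rose, if by as little as 0.02 in BXD83, and the highest rise was 0.61 in BXD48. The change was 0.32 ± 0.030 on the log2 scale, or 1.25-fold (adjusted p = 3.2e-16, limma). In liver the Ctr levels were 3.56, 3.99 and 4.55 and the SD levels 3.76, 4.29 and 4.74. The change of 0.30 ± 0.056 (log2, 1.23-fold, adjusted p = 4.1e-06, limma) was close to that of cortex, but 8 of 39 pools fell.

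Chac1, which degrades glutathione, and Trib3 carry the core shown above and respond to ATF4 in many cells. Cortex levels of Chac1 were 2.25, 2.84 and 3.62 in Ctr and 1.92, 2.73 and 3.74 in SD, and the SD pools spread more widely, with 7 below and 1 above the Ctr range. The change was -0.06 ± 0.091 on the log2 scale and did not pass (adjusted p = 0.59, limma), with a 95% interval from -0.24 to 0.12. In single pools it ran from -0.999 in the second D2 pool to 0.56 in BXD49. In liver Chac1 was at 2.25, 3.32 and 4.39 in Ctr and 2.57, 3.78 and 4.74 in SD. It rose by 0.48 ± 0.114 on the log2 scale (1.39-fold, adjusted p = 2.8e-04, limma) in 29 of 39 pools. Its changes there ranged from -1.09 in BXD79 to 2.01 in BXD49, a standard deviation of 0.721 over pools, against 0.243 that counting error alone gives. Trib3 did not pass in either tissue. Its median went from -0.60 to -0.59 log2 CPM in cortex and from 5.09 to 5.04 in liver, with changes of -0.06 ± 0.106 in cortex (adjusted p = 0.61, limma) and of -0.11 ± 0.083 in liver (adjusted p = 0.29, limma). With 95% intervals from -0.28 to 0.15 and from -0.28 to 0.05, a change as large as that of Chac1 in liver lies outside both. In single pools its liver change ran from -1.55 in BXD67 to 0.79 in BXD48.

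Sesn2 and Ddit4 both restrain the growth kinase complex mTORC1. Sesn2, a leucine sensor, was at 3.23, 3.57 and 3.88 log2 CPM in Ctr cortex and at 3.06, 3.42 and 3.80 in SD cortex. It fell by 0.11 on the log2 scale (standard error 0.038, adjusted p = 0.0086, limma) in 33 of 39 pools. In liver it was at 3.62, 4.16 and 4.72 in Ctr and at 3.26, 4.40 and 5.05 in SD, with 3 SD pools above and 3 below the Ctr range. The change of 0.14 ± 0.079 did not pass (adjusted p = 0.16, limma), but with the BXD/TyJ lines added, 43 pools in all, it was 0.18 with an adjusted p of 0.045, the lowest of alternatives that reached up to 0.45.

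Ddit4, also called REDD1, gave the largest called rise of the 9 in both tissues. In cortex the Ctr pools lay at 4.09, 4.32 and 4.61 and the SD pools at 4.30, 4.89 and 5.32, and 28 of 39 SD pools exceeded the highest Ctr pool. The change was 0.49 ± 0.046 on the log2 scale (1.40-fold, adjusted p = 4.2e-16, limma), with 37 of 39 pools rising. In liver the Ctr pools lay at 2.78, 3.83 and 4.40 and the SD pools at 2.98, 4.48 and 5.55, with 23 SD pools above the Ctr range. The liver change was 0.68 ± 0.109 (log2, 1.61-fold, adjusted p = 1.5e-07, limma). It was spread over pools from -0.65 in BXD67 to 1.76 in BXD55, and 6 of 39 pools fell. BXD55 had the highest Ddit4 change in cortex too, at 1.13.

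Asns makes asparagine from aspartate, and Phgdh and Psat1 catalyse the first and second steps of serine synthesis. Asns in cortex went from 6.38, 6.58 and 6.99 in Ctr to 6.07, 6.43 and 6.82 in SD, and 19 SD pools lay below the lowest Ctr pool. It fell by 0.16 on the log2 scale (standard error 0.039, adjusted p = 2.1e-04, limma), in 38 of 39 pools, which is opposite to Atf4 in the same libraries. Psat1 rose slightly in cortex, from a median of 6.49 to 6.61, by 0.09 ± 0.025 (log2, 1.07-fold, adjusted p = 9.2e-04, limma), in 35 of 39 pools. Phgdh stayed within its spread there (-0.01 ± 0.056, adjusted p = 0.86, limma).

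In liver these 3 genes were low or variable. Psat1 was at -0.13, 1.67 and 3.22 log2 CPM in Ctr and at -0.14, 0.84 and 2.34 in SD, with a median of 16 reads per library. It fell by 0.68 on the log2 scale (standard error 0.148, 0.623-fold, adjusted p = 7.9e-05, limma) in 31 of 39 pools. Its changes had a standard deviation of 0.798, of which counting error alone gives 0.547. Asns ranged over 0.91, 4.00 and 6.43 in Ctr liver and over 0.74, 3.46 and 6.33 in SD liver, a span of 46.2-fold between Ctr pools. Its mean change of -0.31 ± 0.336 did not pass (adjusted p = 0.48, limma) and single pools moved from -3.31 in BXD71 to 2.03 in BXD73. That standard error includes the wide spread between lines. With the pools of a line paired in the fit, Asns did not pass either, at an adjusted p of 0.072 (limma). Phgdh (-0.17 ± 0.222, adjusted p = 0.56, limma) allowed changes from -0.61 to 0.27, so that a change was not detectable at this depth.

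**Figure D2:**
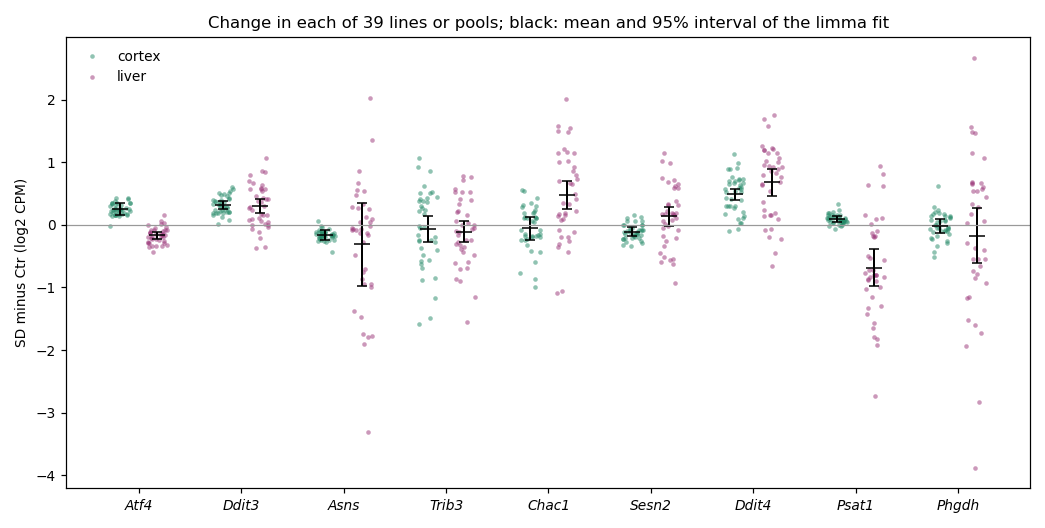
Change of each gene, SD minus Ctr in log2 CPM, in cortex (green) and liver (purple). Each point is 1 of 39 pools and the black bars are the mean and 95% interval of the limma fit. That fit does not pair the pools of a line, so the bars include the spread between lines. Atf4 lies above 0 in cortex in 38 of 39 pools and below 0 in liver in 34 of 39, and liver changes are spread more widely than cortex changes for 8 of 9 genes, Trib3 being the exception.

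Whether SD acted differently on a gene in the 2 tissues was tested within pools, as the liver change minus the cortex change. Of the 9 members, 5 passed, beside 57.6% of all 12695 genes listed in both tissues. Atf4 differed most clearly, at -0.42 ± 0.024 on the log2 scale (adjusted p = 1.1e-18, limma), and its liver change was the lower one in 39 of 39 pools. Psat1 differed by -0.77 ± 0.125 (adjusted p = 9.8e-07, limma; lower in liver in 33 of 39). Chac1 had the higher change in liver, by 0.54 ± 0.117 (adjusted p = 1.2e-04, limma; 31 of 39). Sesn2 followed at 0.25 ± 0.083 (adjusted p = 0.011, limma; 24 of 39) and Ddit4 at 0.19 ± 0.068 (adjusted p = 0.014, limma; 28 of 39). Ddit4 did not pass when the line was left out of the fit (adjusted p = 0.18, the other alternatives starting from 0.0040). Ddit3 did not pass, and the difference between its changes lay between -0.12 and 0.09. Asns, Trib3 and Phgdh did not pass either.

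Some of the largest differences lay between lines. In a fit of condition plus line, the line terms of 7 of 9 members passed in cortex, beside 55.2% of all genes, and of 4 of 9 in liver, beside 57.9%. In cortex Atf4 (F = 21.5, adjusted p = 2e-17) and Asns (F = 16.8, adjusted p = 2.3e-15) led, followed by Psat1 (F = 7.06), Sesn2 (5.66), Phgdh (4.98), Chac1 (4.87) and Ddit3 (F = 2.56, adjusted p = 0.0039, limma). Trib3 and Ddit4 did not pass in cortex. In liver Asns led (F = 9.65, adjusted p = 1.4e-10, limma), followed by Atf4 (F = 2.25, adjusted p = 0.012), Ddit4 (F = 1.99, adjusted p = 0.027) and, at the threshold, Psat1 (F = 1.81, adjusted p = 0.049). With the library total as a covariate Psat1 did not pass in liver (F = 1.63, adjusted p = 0.11), while Atf4 did (F = 1.98, adjusted p = 0.040). A line term here is 1 pool per condition, and the 2 pools of B6 and of D2 had a term each, as had the sublines. The line and anything else its pools share thus cannot be told apart.

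The cortex Ctr pools were split into 2 clusters at a gap on the plane of Atf4 and Asns. Such a split is always found, and whether the pools form 2 groups or a continuous range was not tested. The lower one held 20 pools (16 BXD/RwwJ lines, both D2 pools, both F1 pools), with Atf4 from 6.60 to 6.94 and Asns from 6.38 to 6.58 log2 CPM. The upper one held 19 pools (17 BXD/RwwJ lines and both B6 pools), with Atf4 from 6.92 to 7.43 and Asns from 6.64 to 6.99. The clusters were drawn from the Ctr levels of both genes after the values were seen, and they are not groups of the study. The widest gap of either gene alone lay within the upper cluster (Atf4 7.22 to 7.43, Asns 6.88 to 6.99). In the SD libraries, which came from other mice, the same 2 sets of pools did not overlap in either gene, whereas in Ctr their Atf4 ranges overlapped between 6.92 and 6.94. In SD Atf4 ran from 6.80 to 7.16 in the lower and from 7.19 to 7.60 in the upper set, and Asns from 6.07 to 6.43 and from 6.52 to 6.82. Ctr and SD levels of both genes were related over the pools, as given below, so a split of Ctr levels would tend to persist in SD.

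**Figure D3:**
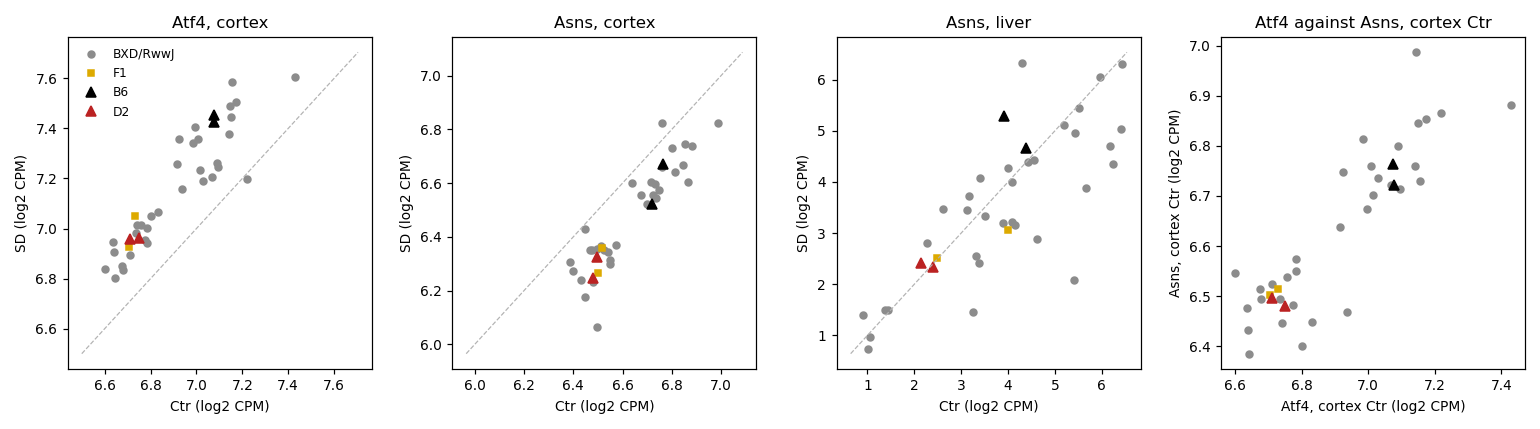
SD level against Ctr level (log2 CPM) of Atf4 and Asns in cortex and of Asns in liver, and Asns against Atf4 in Ctr cortex; each point is 1 of 39 pools, triangles are the parental pools, squares the F1 pools, and the dashed line marks equal levels. The split of Ctr cortex pools put B6 in an upper cluster of 19 pools and D2 and F1 in a lower one of 20. Asns in liver is spread along the line over more than 5 log2 units.

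Ctr and SD levels in cortex were related across the 39 pools for 7 of 9 members, over a family of 43 relations, beside a median r of 0.33 over all cortex genes. The share of all genes that would pass was not counted. Of all cortex genes 2.44% had a higher r than Atf4, 2.83% than Asns, 8.66% than Psat1 and 9.21% than Sesn2. A higher r than that of Chac1 was found for 11.1%, than of Phgdh for 14.75% and than of Ddit3 for 35.8%. Psat1 gave r = 0.77 (rho = 0.73), Sesn2 r = 0.76 (rho = 0.75) and Chac1 r = 0.72 (rho = 0.72), each with a permutation p of 1e-05, the smallest that 100000 permutations give, and an adjusted p of 6.1e-05. Phgdh gave r = 0.65 (rho = 0.64, permutation p = 3e-05, adjusted p = 1.6e-04). Without the 2 farthest pools these 4 values were 0.75, 0.73, 0.66 and 0.69. Ddit3 passed with r = 0.44 (rho = 0.30, permutation p = 0.0054, adjusted p = 0.023) but not without the 2 farthest pools (r = 0.34). Trib3 and Ddit4 did not pass.

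Atf4 and Asns were the other 2 that passed, and since their pools were split into 2 clusters their r is given within each. For Atf4 it was 0.85 (rho = 0.79) in the lower cluster (permutation p = 1e-05, adjusted p = 0.00048 over 48 relations) and 0.51 (rho = 0.44) in the upper one (permutation p = 0.022, adjusted p = 0.095), or 0.74 and 0.25 without the 2 farthest pools. For Asns it was 0.21 (rho = 0.34) in the lower cluster (permutation p = 0.37, adjusted p = 0.57) and 0.69 (rho = 0.76) in the upper one (permutation p = 0.0011, adjusted p = 0.018), or 0.25 and 0.52 without the 2 farthest pools. The split on Ctr levels narrows their range within a cluster, which by itself lowers r, so these values do not show that a relation is absent. It was made on these same Ctr levels, so the p-values within clusters are a description. Between each other, the Ctr levels of Atf4 and Asns are described by the clusters alone.

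The parental strains and their hybrids are the named pools among these, with B6 in the upper cluster and D2 and both F1 crosses in the lower. In Ctr cortex Atf4 was at 7.08 log2 CPM as the mean of the B6 pools and at 6.73 in D2, and replicate pools of a strain differed by at most 0.04. The BD-F1 and DB-F1 pools, at 6.73 and 6.70, lay with D2. Under SD the strain means were 7.44 and 6.96, again 2 pools each without overlap, and the F1 pools stood at 7.05 and 6.93. Asns (0.25), Psat1 (0.23) and Phgdh (0.59 higher in B6, log2) also stood higher in both B6 than in both D2 pools of Ctr cortex, as did Sesn2 by 0.17. Ddit3 (-0.14) and Trib3 (-0.52) went the other way, with both B6 pools below both D2 pools, Trib3 on 11 to 21 reads per pool. In SD cortex the pools of the strains overlapped for Ddit3 (0.04) and Trib3 (-0.10), while Asns, Psat1, Phgdh and Sesn2 again stood higher in B6. Chac1 (0.92) stood higher in both B6 pools and Ddit4 (-0.29) lower in SD cortex, where in Ctr their pools overlapped. With 2 pools per strain no test was run. In liver, B6 exceeded D2 by 1.88 in Asns and by 1.75 in Psat1 (log2 scale, Ctr), and both B6 pools again lay above both D2 pools. Atf4 (0.14) was also higher in both B6 pools there and Chac1 (-0.45) lower. In SD liver both B6 pools lay above both D2 pools in Asns (2.595), Psat1 (1.46) and Phgdh (1.47, at few reads). They lay below in Trib3 (-1.11), Ddit4 (-1.01), Chac1 (-0.81) and Atf4 (-0.08). The hybrids differed from each other in Ctr liver, with Asns at 4.00 in BD-F1 and 2.47 in DB-F1.

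In liver Asns kept its line order through SD, with an r of 0.79 between Ctr and SD levels (rho = 0.77, permutation p = 1e-05, adjusted p = 6.1e-05 over 43 relations, 39 pools), and of 0.75 without the 2 farthest pools. The median r over all liver genes was 0.35, and 4.45% of them had a higher r than Asns. Atf4 gave r = 0.43 (rho = 0.38, permutation p = 0.0054, adjusted p = 0.023), or 0.39 without the 2 farthest pools, when it no longer passed. A higher r than that of Atf4 was found for 36.1% of all liver genes. The other 7 members did not pass, and Ddit3, Trib3, Chac1 and Sesn2 had an r between -0.04 and 0.03. The liver change of Asns in lines named as sublines was 2.03 in BXD73 and 0.10 in BXD73b, -1.90 in BXD65 and -0.07 in BXD65a, and -0.17 in BXD48 and -0.70 in BXD48a. Each of these is 1 pool per condition, and the changes of the 2 B6 pools, 1.36 and 0.28, lay apart by a like order of size, so no difference between sublines is read from them.

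Of the 9 members, Ddit4 alone passed when a line's change in cortex was set against its change in liver. The cortex and liver changes of Ddit4 correlated at r = 0.68 over 39 pools (rho = 0.67, permutation p = 1e-05, adjusted p = 6.1e-05 over 43 relations) and at 0.66 without the 2 farthest pools. Of all genes listed in both tissues 0.00788% had a higher r, around a median r of 0.01. The other 8 members had r from -0.24 to 0.30 and none passed.

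**Figure D4:**
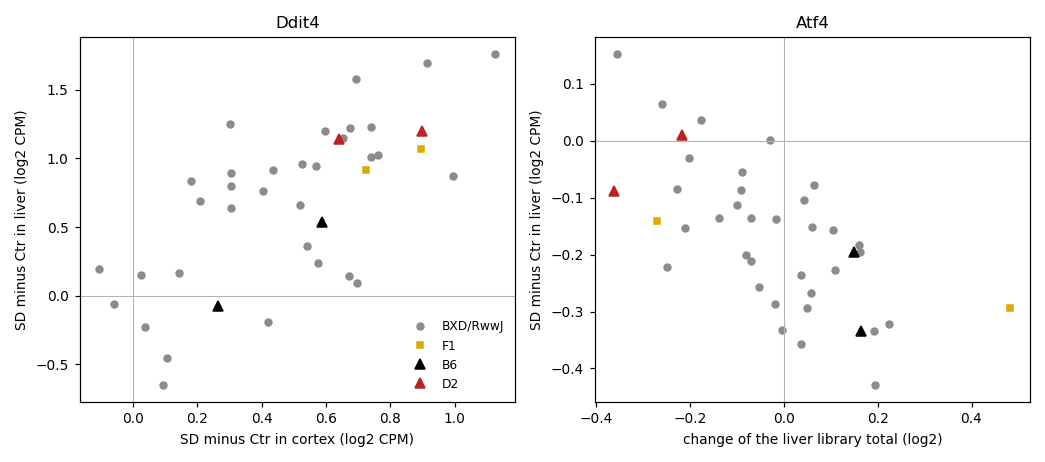
Left, change of Ddit4 in liver against its change in cortex (SD minus Ctr, log2 CPM); right, change of Atf4 in liver against the change of the liver library total (log2 scale); each point is 1 of 39 pools. The Ddit4 changes rise together (r = 0.68), and the Atf4 changes are lower where the library total rose (r = -0.67).

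The changes of Atf4 were loosely tied to those of the other members. In cortex its r with the other 8 ran from 0.02 to 0.36 and none passed over the 43 relations. In liver 1 of 8 passed, a negative one with Sesn2 (r = -0.42, rho = -0.39, permutation p = 0.0077, adjusted p = 0.030), which was -0.35 without the 2 farthest pools and then did not pass. Of all liver genes 87.0% had a higher r with the change of Atf4 and the rest a still lower one, around a median absolute r of 0.26. Nothing particular to Sesn2 is read from it. The liver change of Atf4 also followed that of the library total (r = -0.67), whose part in the relation with Sesn2 was not tested. Among pairs without Atf4, looked at after the values were seen (128 relations with those of the Ctr levels), the changes of Psat1 and Phgdh in cortex gave r = 0.54 (rho = 0.43, permutation p = 0.00052, adjusted p = 0.0078), which was 0.33 without the 2 farthest pools and so rests on them. In liver Trib3 and Sesn2 gave r = 0.63 (rho = 0.66, permutation p = 1e-05, adjusted p = 0.00032) and 0.62 without the 2 farthest pools. Sesn2 and Ddit4 gave r = 0.46 there (rho = 0.50, permutation p = 0.0039, adjusted p = 0.041), which did not pass without the 2 farthest pools (r = 0.43, adjusted p = 0.068) or with the library total regressed out (r = 0.44, adjusted p = 0.052). Of 36 pairs of Ctr levels, 8 passed in cortex and 1 in liver. How many pairs would pass among all genes was not counted. In cortex 7 of the 8 joined Atf4 or Asns, namely Atf4 with Asns, and each of them with Chac1, Sesn2 and Psat1, all positive. No r over all pools is given for these because of the split into clusters. Of all cortex genes 0.0134% had a larger absolute r with Atf4 than Asns had. The share was 0.786% for Chac1, 4.62% for Sesn2 and 8.36% for Psat1. For r with Asns it was 1.94% for Chac1, 2.91% for Sesn2 and 3.05% for Psat1. The eighth pair was Trib3 with Chac1 (r = 0.47, rho = 0.43, permutation p = 0.0028, adjusted p = 0.033), or 0.46 without the 2 farthest pools. A larger absolute r with Trib3 was found for 1.29% of cortex genes. The liver Ctr levels of Asns and Psat1 gave r = 0.52 (rho = 0.51, permutation p = 0.00062, adjusted p = 0.0079). A larger absolute r with Asns was found for 0.277% of liver genes.

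**Figure D5:**
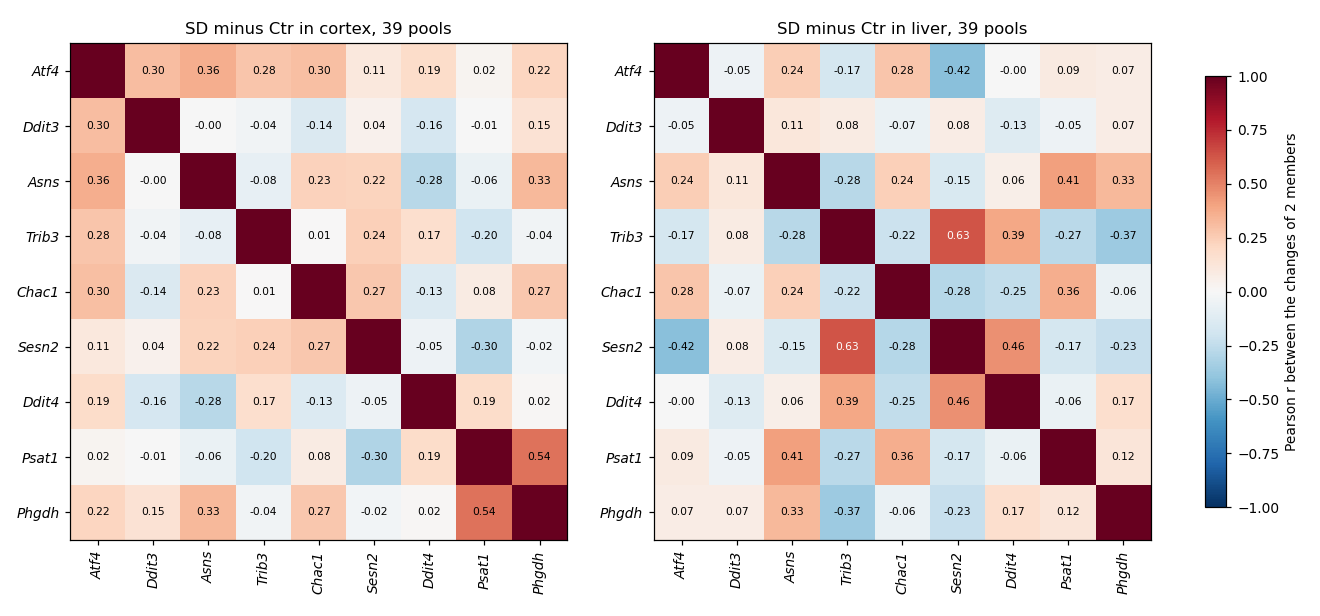
Pearson r between the changes (SD minus Ctr, log2 CPM) of each pair of members over 39 pools, in cortex and in liver, from -1 (blue) to 1 (red). Most pairs lie near 0, with Psat1 and Phgdh in cortex (0.54) and Trib3 and Sesn2 in liver (0.63) as the highest.

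Of all genes listed, those whose changes over the 39 pools were most like a member's are given as a description. For Ddit4 they were Sgk1 (r = 0.85), Nfkbia (0.81) and Tsc22d3 (0.77) in cortex and Arl4d (0.85), Tsc22d3 (0.75) and Sgk1 (0.75) in liver, of which Sgk1, Tsc22d3 and Nfkbia are known glucocorticoid-induced genes. For Ddit3 in cortex the nearest was Xbp1 (0.68), a factor of the unfolded-protein response, followed by G3bp1 (0.63) and Ubtf (0.63), and in liver Gpc3 (0.53), Zfp825 (0.53) and Anks6 (0.53). Atf4 in cortex was nearest to Ywhaz (0.70), Nup35 (0.67) and Nol7 (0.66), and in liver to Calm2 (0.81), Rps10 (0.81) and Rpl6 (0.81). Over 72 ribosomal protein genes the mean liver change had an r of 0.76 with that of Atf4, while their median change was 0.04 on the log2 scale, opposite in sign to that of Atf4. The part of the library total, which the liver change of Atf4 followed (r = -0.67), in these liver values was not tested. Asns in cortex was nearest to Hs3st1 (0.71), Slc25a11 (0.67) and Pcsk5 (0.66), Sesn2 to Cep57l1 (0.58), Lox (0.56) and Park2 (0.55), and Psat1 to Dgkz (0.78), Brsk1 (0.73) and Rtn4r (0.73). In liver Chac1 was nearest to Cish (0.61), Plk3 (0.61) and F11 (0.59), and Psat1 to Apbb1ip (0.71), Dysf (0.65) and Msn (0.63).

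The rest of the pathway was read from 8 lists, whose counts stand beside 33.0% of all genes higher and 35.4% lower in SD cortex, and 21.5% higher and 22.6% lower in SD liver. Of the 8 genes around eIF2 itself (kinases, phosphatase subunits and Eif2s1), 5 rose and 3 fell in cortex, and 2 rose and 1 fell in liver. Ppp1r15b, a phosphatase subunit, rose most in cortex (0.25 ± 0.020, adjusted p = 5e-19, limma) and the kinase gene Eif2ak2 fell most (-0.34 ± 0.043). In liver Ppp1r15a, which codes for GADD34 and is an ATF4 target, rose by 0.15 and Eif2ak2 fell by 0.14 (adjusted p = 0.032, and up to 0.053 with 1 pool left out, limma). Among other bZIP factors 5 of 7 listed rose in cortex and none fell, and 4 of 8 rose and 1 fell in liver. Cebpd led in both, at 0.63 ± 0.101 in cortex and 1.02 ± 0.097 in liver (log2), and Nfe2l2 fell by 0.10 in liver.

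The next 4 lists hold ATF4 targets among other genes. Their genes passed in both directions in cortex and, except for the tRNA genes, in liver. The same held over all genes (33.0% up and 35.4% down in cortex, 21.5% and 22.6% in liver). Nothing particular to these lists is read from their counts. Of 13 genes of tRNA charging and export (aminoacyl-tRNA synthetases and the export receptor gene Xpot, which fell in both tissues), 4 rose and 7 fell in cortex, and none rose and 8 fell in liver. Tars rose most in cortex (0.16 ± 0.019), and Lars fell by 0.15 in cortex and by 0.37 in liver, each in 39 of 39 pools. Of 8 amino acid transporters 2 rose (Slc1a5 most, by 0.22) and 2 fell (Slc7a11 most, by 0.28) in cortex. In liver 2 of 6 listed rose (Slc6a9 most, by 0.15) and 3 fell, Slc1a4 with a log2 change of -1.20 ± 0.093 (adjusted p = 2.5e-19, limma) that was negative in each of 39 pools. Of 10 enzymes of amino acid metabolism (serine, one-carbon, proline and transsulfuration enzymes and Gpt2), 6 rose and 2 fell in cortex, and 1 rose and 3 fell in liver. Gpt2, a mitochondrial alanine aminotransferase, rose by 0.63 ± 0.033 in cortex, and the one-carbon enzyme Mthfd1l fell by 0.49 in cortex and by 0.95 in liver. Psph, the last enzyme of serine synthesis, rose by 0.13 in liver, where Psat1 fell. Of the other stress effectors, 4 of 10 listed rose and 3 fell in cortex, and 4 of 12 rose and 2 fell in liver. Cdkn1a, a cell cycle inhibitor, rose by 1.64 ± 0.088 in cortex and 0.94 ± 0.190 in liver, and Bbc3, which codes for the p53 target PUMA, fell by 0.60 and 0.40.

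In the remaining 2 lists no gene fell in either tissue. Of 12 genes of the other arms of the unfolded-protein response, 11 rose in cortex, with a median change of 0.72, and 9 rose in liver, with a median of 0.14 (log2), beside 33.0% and 21.5% of all genes. The endoplasmic reticulum chaperone component Sdf2l1 rose by 1.66 ± 0.049 in cortex and Creld2 by 0.82 ± 0.058 in liver, each in 39 of 39 pools. Of 7 glucocorticoid-responsive genes 7 rose in cortex (median 0.71, Tsc22d3 most, at 1.00 ± 0.056) and 6 in liver (median 0.85, Zbtb16 most, at 2.08 ± 0.139). These medians stand beside medians over all genes of -0.01 in cortex and -0.00 in liver. The lists were chosen with earlier results of these data known, so their counts and medians are a description and not a test.

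The 4 BXD/TyJ lines, which entered none of the tests above unless said, gave their own values. Ddit4 rose in 4 of 4 in cortex (0.09 to 0.88) and in 3 of 4 in liver, Chac1 rose in 4 of 4 in liver (0.14 to 0.72) and Asns fell in 4 of 4 in cortex (-0.45 to -0.07). Atf4 rose in 3 of 4 in cortex (-0.03 to 0.32) and fell in 3 of 4 in liver (-0.26 to 0.13). The line without a cortex rise of Atf4, BXD05, also had none of Ddit3 (-0.08).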

How the data were processed

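Libraries were made from poly(A) RNA pooled per line, tissue and condition. The authors aligned reads to mm9 with STAR, counted them per gene with HTSeq on the sense strand of a reverse-stranded library, and deposited log2 CPM (read counts relative to library sizes scaled by TMM) as 4 tables, Ctr and SD per tissue; the versions of STAR and HTSeq are not given in the sources used here. Whole reads recovered from these values (tolerance 0.02, 100% of values) gave library totals, reads per gene and the voom alternative. The mean log2 scaling factors were 0.012 in Ctr and -0.012 in SD cortex, so that the factors were not centred within each table. The members and lists were chosen with earlier results of these data known.

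The SD response was tested with limma 3.58.1 (R 4.3.3, lmFit, eBayes with trend) on the 39 Ctr and 39 SD pools of a tissue, without a filter on low values. The pools of a line were not paired in this fit, so its standard errors include the spread between lines. p-values were adjusted over all genes listed (Benjamini-Hochberg, two-sided); 95% intervals use the limma standard error with the residual degrees of freedom. The difference between tissues was tested on the change per pool, and line differences with an F test of the line terms. Fits were tested on simulated data. Correlations used 100000 permutations (two-sided). Pools of a line pair: the Ctr and SD deviations of a line (same strain, different mice) correlated at a median r of 0.614 in cortex and 0.475 in liver. The lowest r was 0.299 in cortex and 0.169 in liver, and the median between lines was -0.02. The 2 clusters of Ctr cortex pools are split at the widest gap, between the quartiles, of the summed standardized levels of Atf4 and Asns. Named are the 9 members; of each list and tissue, the called gene with the largest rise and fall; and the 3 genes whose change is most like that of each member with a called change. Depth limits single values: cortex libraries held a median of 22170272 (Ctr) and 22713295 (SD) reads and liver libraries 6752508 and 6563242. Positions of members in mm9 came from GENCODE vM1, and promoter windows from RefSeq on GRCm38.p6. Alternatives covered scaling, trend, filter, pools used, the replicate block and, added after the data were seen, the library total as a covariate.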

Additional observations from a re-analysis of the deposited data

Results flagged for a closer look

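The response to SD differed between liver and cortex (liver minus cortex, log2, limma on 39 pools) by -0.42 for Atf4, 0.54 for Chac1, 0.25 for Sesn2, 0.19 for Ddit4 and -0.77 for Psat1. Only Atf4 and Psat1 passed in both tissues with opposite signs, Atf4 rising in cortex and falling in liver and Psat1 likewise.

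In groups of 4 BXD/TyJ pools, 3 of 36 groups had 1 pool far from the others, where chance gives about 1 in 20. The Ctr cortex pool of BXD05 had Ddit3 at 4.55 log2 CPM, above 3.96 to 4.05 in the other lines. The SD cortex pool of BXD29 had Sesn2 at 3.53, above 3.27 to 3.31. The Ctr liver pool of BXD05 had Phgdh at -1.72, below -0.12 to 0.04, a value from 1 read.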

How the results depend on the processing

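Under all alternatives run, 6 members passed in cortex, 5 or 6 in liver, 4 or 5 between tissues and 7 for line differences in cortex. For line differences in liver 4 passed, or fewer, down to 2 with eBayes without trend. With the replicate block, which uses the pairing of the pools of a line, 11359 genes passed in cortex and 7603 in liver, against 10191 and 6229 without it, and the members that passed were 6 and 5 as before. In the difference between tissues, 6067 genes passed without the replicate block, against 7312 with it, and Ddit4 was the member lost; the block changed no other call of a member. Signs turned only for members that did not pass: Trib3 (0.0563) and Phgdh (0.0013) in cortex under quantile normalization, Ddit3 between tissues under quantile normalization (0.012), and, leaving out 1 pool at a time, Phgdh in cortex (-0.0292 to 0.00038), Ddit3 between tissues (-0.0364 to 0.000696) and Trib3 between tissues (-0.10 to 0.00292). The cause was not tested. The line differences of Psat1 in liver did not pass under 5 alternatives (adjusted p 0.052 to 0.12), and those of Ddit4 under 2 (0.053 and 0.078). Of the 11 relations across pools that passed (7 of Ctr with SD levels in cortex, 2 in liver, Ddit4 between tissues, and Atf4 with Sesn2 in liver), 8 did so without the 2 farthest pools and 10 without BXD79, BXD85 and BXD101, the lines with fewer mice. Depth limits Phgdh and Psat1 in liver and Trib3 in cortex.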
